A study of Mus musculus with 11 samples.

Results

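Cytosolic heat shock chaperones and co-chaperones were followed in mouse lung through 10 genes: Hspa8, Hspa1a, Hsph1, Dnaja1, Dnajb1, Hsp90aa1, Stip1, Ahsa2, Chordc1 and Hspb1. They were picked by symbol, with earlier results of these arrays known, and make up 10 of the 19938 genes measured. Lungs of 129S1 mice were profiled on 11 Affymetrix arrays. Combination mice (3 arrays) were gavaged with aspirin at 4 mg/kg and triptolide at 1 mg/kg, triptolide mice (3 arrays) with triptolide at 1 mg/kg, and aspirin mice (3 arrays) with aspirin at 4 mg/kg. Dosing ran 5 days a week for 2 months. The controls (2 arrays) carry the label untreated, whereas the protocol speaks of PBS for this group. No sex, age or tumour state is given for any animal, nor whether replicates are separate animals, so the errors describe the spread between samples, which may be technical.

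Heat shock chaperones hold unfolded proteins until they fold. Hsp70 proteins bind exposed stretches of a client when a J protein stimulates their ATPase, and Hsp110 proteins release them again by exchanging the nucleotide. Clients such as steroid receptors and kinases are then passed on to Hsp90 by co-chaperones that bridge both machines, and small heat shock proteins keep aggregating clients soluble. Heat shock factors induce many of these genes through heat shock elements, which are alternating GAA and TTC blocks in the promoter. Triptolide, a diterpenoid of the thunder god vine, binds a helicase subunit of the general transcription factor TFIIH, and aspirin acetylates cyclooxygenases.

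Promoters were searched for such blocks because the genes lay high on the same arrays. RefSeq windows on GRCm38.p6, reaching from 250 bases before to 50 after each start site, were matched for 8 of the 10 genes, all but Hspa8 and Hsp90aa1. The letters GAANNTTC or TTCNNGAA, each its own reverse complement and free to overlap, occurred in 5 of the 8 genes, in 17 of 69 other chaperone genes (24.6%) and in 17% of all 27025 genes with a window. A run of 3 blocks, in which either pair goes on with NN and 1 more alternating block, occurred in 2 of the 8 genes (Chordc1 and Hsph1), in 3 of the 69 and in 0.662% of all genes. Ahsa2, Dnajb1 and Stip1 held neither form in this window. The 5 promoters with a match are given here from 150 bases before to 30 after the start, 5′ to 3′, with the GAA and TTC blocks of each match in capitals. Chordc1 lies at chr9:18292117-18292296 on the plus strand, Hsph1 at chr5:149636286-149636465 on the minus strand, Hspa1a at chr17:34972127-34972306 on the minus strand, Dnaja1 at chr4:40722318-40722497 on the plus strand and Hspb1 at chr5:135887769-135887948 on the plus strand.
Chordc1: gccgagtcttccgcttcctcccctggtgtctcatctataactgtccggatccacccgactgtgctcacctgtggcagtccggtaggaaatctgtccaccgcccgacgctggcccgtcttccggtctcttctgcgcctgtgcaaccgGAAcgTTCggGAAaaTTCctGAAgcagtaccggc
Hsph1: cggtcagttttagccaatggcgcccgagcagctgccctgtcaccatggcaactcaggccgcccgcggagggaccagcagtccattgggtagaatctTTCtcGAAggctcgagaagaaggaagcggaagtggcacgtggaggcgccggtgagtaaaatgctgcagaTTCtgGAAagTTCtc
Hspa1a: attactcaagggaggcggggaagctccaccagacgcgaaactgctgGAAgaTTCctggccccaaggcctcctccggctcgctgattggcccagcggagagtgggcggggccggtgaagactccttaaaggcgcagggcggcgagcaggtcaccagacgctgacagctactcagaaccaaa
Dnaja1: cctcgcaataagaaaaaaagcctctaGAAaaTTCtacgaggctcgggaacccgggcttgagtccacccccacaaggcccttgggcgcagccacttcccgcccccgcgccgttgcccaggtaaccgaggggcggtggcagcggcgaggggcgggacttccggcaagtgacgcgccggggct
Hspb1: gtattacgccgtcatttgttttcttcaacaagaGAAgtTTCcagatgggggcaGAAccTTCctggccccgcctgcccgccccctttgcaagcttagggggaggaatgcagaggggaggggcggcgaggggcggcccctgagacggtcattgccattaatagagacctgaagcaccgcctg
In Chordc1 the blocks join into 1 run of alternating GAA and TTC across the start site, and a further pair at 34 lies past the letters shown. Hsph1 carries a pair at -54 and a run of 3 blocks from 16, whereas Hspa1a and Dnaja1 carry 1 pair each, at -104 and -124. Hspb1 carries 2 pairs, at -117 and -97. These are letter matches, and no binding was measured.

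The array values are log2 levels, and a difference of 1 is a doubling. Of 15 lung markers, 14 read above 8.60, the highest array median over named genes, on every array (all but Marco of alveolar macrophages, at 8.44 to 9.28), among them Sftpc, the surfactant protein of alveolar type 2 cells, at 13.62 to 14.27 and Scgb1a1, the secretory protein of club cells, at 13.75 to 14.08. Combination 1 stood apart, at 60.2 on a first principal component that held 45.5% of the variance, against -15.0 to 6.79 for the other arrays. It also stood at 2.84 for cell cycle genes and at 2.96 for the 3 measured erythroid markers (mean log2 level relative to the mean of all arrays), where the other 10 arrays lay at -0.51 to -0.03 and -1.003 to 1.38. Xist, the RNA of the silenced X chromosome, read 12.26, 12.80 and 12.31 with the combination, 12.32, 9.75 and 6.61 with triptolide, 6.996, 6.86 and 6.77 with aspirin, and 11.98 and 12.07 in control. It was thus high on all combination arrays, on triptolide 1 and in control, and low with aspirin. Values for chaperones are therefore also given below for arrays that are alike in Xist.

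On every array with triptolide the 10 chaperones, as a mean, lay higher together than on any array without it. The mean level of the 10 genes, each centred on its own mean, was 0.20, 0.20 and 0.22 on combination 1, 2 and 3, and 0.17, 0.14 and 0.34 on triptolide 1, 2 and 3. It was -0.41, -0.17 and -0.35 on aspirin 1, 2 and 3, and -0.24 and -0.08 on control 1 and 2. By group it was 0.20 ± 0.01 with the combination, 0.21 ± 0.11 with triptolide and -0.31 ± 0.13 with aspirin (SD, n = 3 each), and -0.16 ± 0.12 in control (SD, n = 2). In 7 of the 10 genes the lowest of the 6 triptolide-exposed arrays read above the highest of the 5 unexposed ones. Over all genes, 0.471% did so. Exposed minus unexposed lay above 0 in all 10, beside 45.5% of all genes. Since these values were in view when the genes were picked, the count is a description. It was 7 or 8 when any 1 array was left out, and 7 without combination 1. In whole lung, fewer cells of a type and less RNA per cell cannot be told apart. Each gene had its highest value on a triptolide-exposed array, 4 of them on combination 1, beside 19% of all genes, and 3 on triptolide 3. The lowest value was on aspirin 3 in 5 genes, on aspirin 1 in 3, and on combination 1 and control 1 in 1 each.

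**Figure D1:**
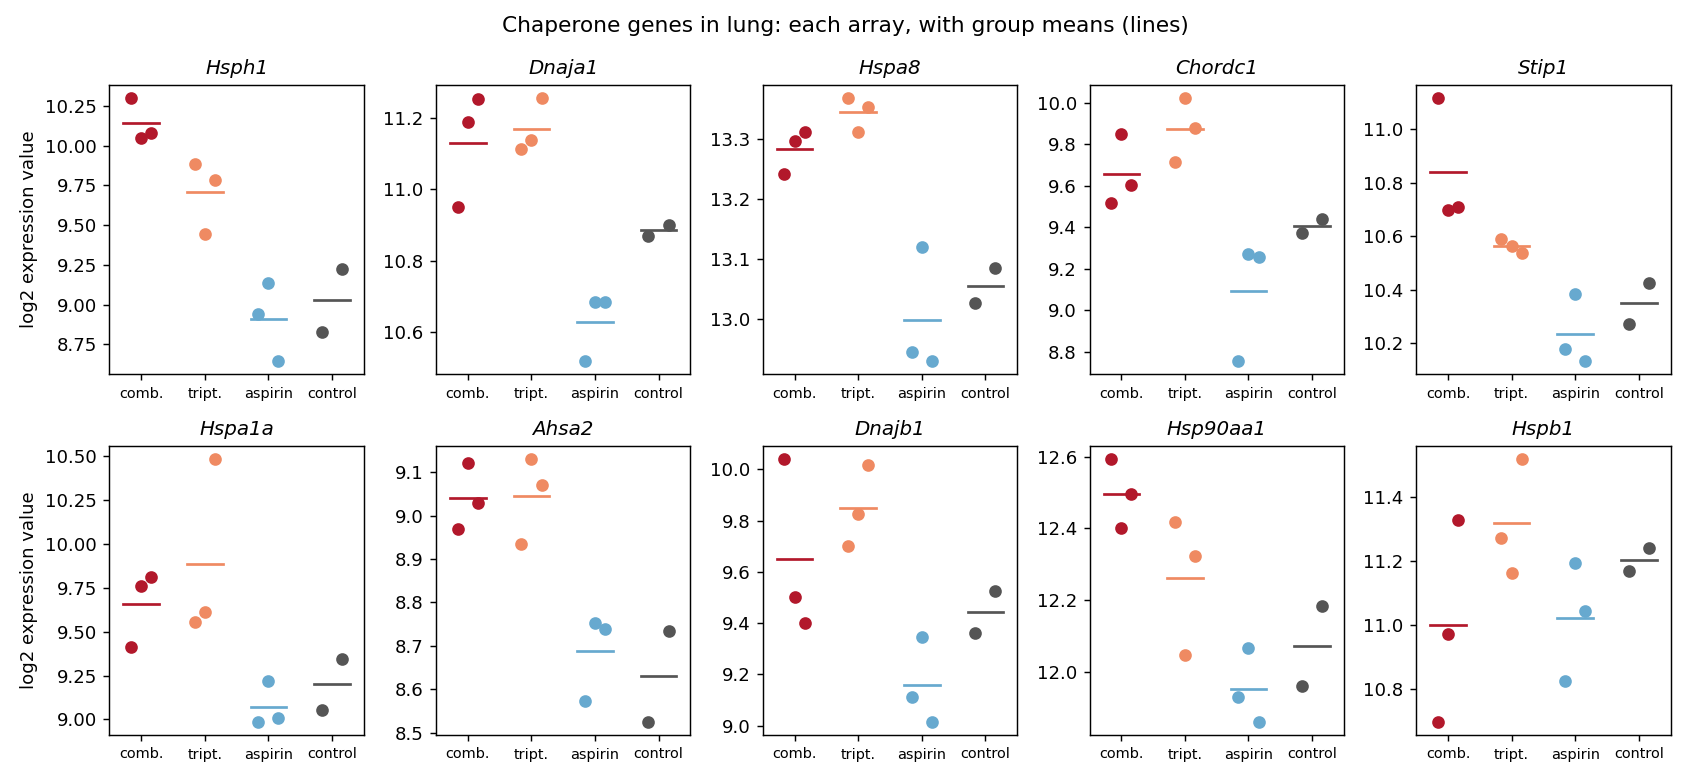
Log2 expression value (y axis, own scale in each panel) of the 10 chaperone genes on each array, by group (x axis, comb. for combination and tript. for triptolide); points are arrays and lines are group means. In 7 panels all 6 combination and triptolide points lie above all 5 aspirin and control points, and Dnajb1, Hsp90aa1 and Hspb1 overlap.

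The Hsp70 machine is represented by 3 genes. Hspa8, the constitutive Hsc70 that also uncoats clathrin vesicles, read 13.24, 13.30 and 13.31 with the combination, 13.37, 13.31 and 13.35 with triptolide, 12.94, 13.12 and 12.93 with aspirin, and 13.03 and 13.08 in control. In another of its rows in the array table, the exposed arrays ran more widely, from 12.20 to 12.58. In the row used, Hspa8 had the smallest spread of the 10 genes among exposed arrays, with an SD of 0.05 (n = 6). No exposed array reached down to the unexposed ones. Triptolide-exposed minus unexposed, meaning the mean of the combination and triptolide groups minus that of aspirin and control, was 0.29 ± 0.06 (SE of the limma fit), or 1.22-fold. Hspa1a, the stress-inducible Hsp70, read 9.41, 9.76 and 9.81 with the combination, 9.55, 9.61 and 10.48 with triptolide, 8.99, 9.22 and 9.01 with aspirin, and 9.05 and 9.35 in control. Its groups were also apart, by 0.06 between the lowest exposed and the highest unexposed array, and the difference was 0.64 ± 0.17, or 1.55-fold. Triptolide 3 read far above the other triptolide arrays, and without it triptolide minus control was 0.38 in place of 0.68. That array also stood at 1.05 for cardiac muscle markers, against -0.28 to -0.14 on the other triptolide arrays, and the part of this in the result was not tested. A near-identical neighbouring copy of Hspa1a, not analysed here, may share its probes.

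Hsph1, the Hsp110 that exchanges the nucleotide of Hsp70, showed the widest difference among the 10 genes. It read 10.30, 10.045 and 10.08 with the combination, 9.89, 9.44 and 9.78 with triptolide, 8.94, 9.14 and 8.65 with aspirin, and 8.83 and 9.22 in control. All 3 combination arrays lay above all 3 triptolide arrays, which in turn lay above every aspirin and control array. Against control the difference was 1.11 ± 0.18 with the combination, or 2.16-fold, and 0.68 ± 0.18 with triptolide, or 1.60-fold. Combination minus triptolide was 0.44 ± 0.16. Exposed minus unexposed was 0.96 ± 0.12, or 1.94-fold.

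J proteins deliver clients to Hsp70. Dnaja1, a farnesylated J protein of the cytosol, read 10.95, 11.19 and 11.25 with the combination, 11.11, 11.14 and 11.26 with triptolide, 10.52, 10.68 and 10.69 with aspirin, and 10.87 and 10.90 in control. Both triptolide-exposed groups lay on top, control below them and aspirin below control, with no array out of that order in the row used. Dnaja1 differed from control by 0.25 ± 0.11 with the combination, 0.28 ± 0.11 with triptolide and -0.26 ± 0.11 with aspirin. Dnajb1, the inducible Hsp40, read 10.04, 9.503 and 9.40 with the combination, 9.70, 9.82 and 10.02 with triptolide, 9.11, 9.35 and 9.02 with aspirin, and 9.36 and 9.52 in control. Here the triptolide arrays stood clear of control, while combination 2 and 3 lay within the control range and combination 1 lay above all. Combination minus control was 0.21 ± 0.18, and without combination 1 it was 0.01. Triptolide minus control was 0.41 ± 0.18.

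There are 4 genes that belong to the Hsp90 machine. Hsp90aa1, the stress-inducible cytosolic Hsp90, read 12.59, 12.40 and 12.50 with the combination, 12.42, 12.05 and 12.32 with triptolide, 11.93, 12.07 and 11.86 with aspirin, and 11.96 and 12.18 in control. Stip1 (Hop), which tethers Hsp70 to Hsp90 for the handover of clients, read 11.12, 10.70 and 10.71 with the combination, 10.59, 10.56 and 10.54 with triptolide, 10.18, 10.38 and 10.13 with aspirin, and 10.27 and 10.42 in control. Both genes were highest with the combination, and triptolide 2 was the only exposed array that overlapped the unexposed ones for Hsp90aa1. Against control, Hsp90aa1 differed by 0.43 ± 0.13 with the combination and 0.19 ± 0.13 with triptolide, and Stip1 by 0.49 ± 0.13 and 0.21 ± 0.13. Leaving out control 1 brought triptolide minus control to 0.08 for Hsp90aa1 and to 0.14 for Stip1. For Hsp90aa1 it was 0.11 without triptolide 1, 0.30 without control 2 and 0.30 without triptolide 2.

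Ahsa2, a homologue of the Hsp90 ATPase activator Aha1, read 8.97, 9.12 and 9.03 with the combination, 8.93, 9.13 and 9.07 with triptolide, 8.57, 8.75 and 8.74 with aspirin, and 8.52 and 8.73 in control. The triptolide-exposed groups overlapped each other, as did the unexposed ones, and 0.18 separated the nearest arrays of the 2 sets. Ahsa2 differed from control by 0.41 ± 0.11 with the combination, 0.42 ± 0.11 with triptolide and 0.06 ± 0.11 with aspirin, the only positive aspirin difference among the 10 genes; it was -0.05 without control 1. Chordc1 (morgana), a zinc-binding Hsp90 co-chaperone with the block run shown above, read 9.52, 9.85 and 9.61 with the combination, 9.72, 10.02 and 9.88 with triptolide, 8.76, 9.27 and 9.26 with aspirin, and 9.37 and 9.44 in control. All exposed arrays exceeded all unexposed ones, by 0.08 at the nearest, and all aspirin arrays lay below control. Its differences from control were 0.25 ± 0.17 with the combination, 0.47 ± 0.17 with triptolide and -0.31 ± 0.17 with aspirin. Without combination 2 the first of these was 0.16.

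Hspb1, the small heat shock protein Hsp25, went its own way. It read 10.70, 10.97 and 11.33 with the combination, 11.27, 11.16 and 11.52 with triptolide, 10.83, 11.19 and 11.05 with aspirin, and 11.17 and 11.24 in control. The groups overlapped throughout, and only 3 of the 6 exposed arrays lay above all unexposed ones. Exposed minus unexposed was 0.05 ± 0.12, and its sign turned when combination 3 was left out, at -0.04, and, by less than 0.01, when aspirin 1 or triptolide 3 was. It was 0.12 without combination 1. Hspb1 differed from control by -0.21 ± 0.18 with the combination, which was -0.05 without combination 1 and -0.37 without combination 3. Triptolide minus control was 0.11 ± 0.18, which was 0.01 without triptolide 3 and 0.19 without triptolide 2.

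**Figure D2:**
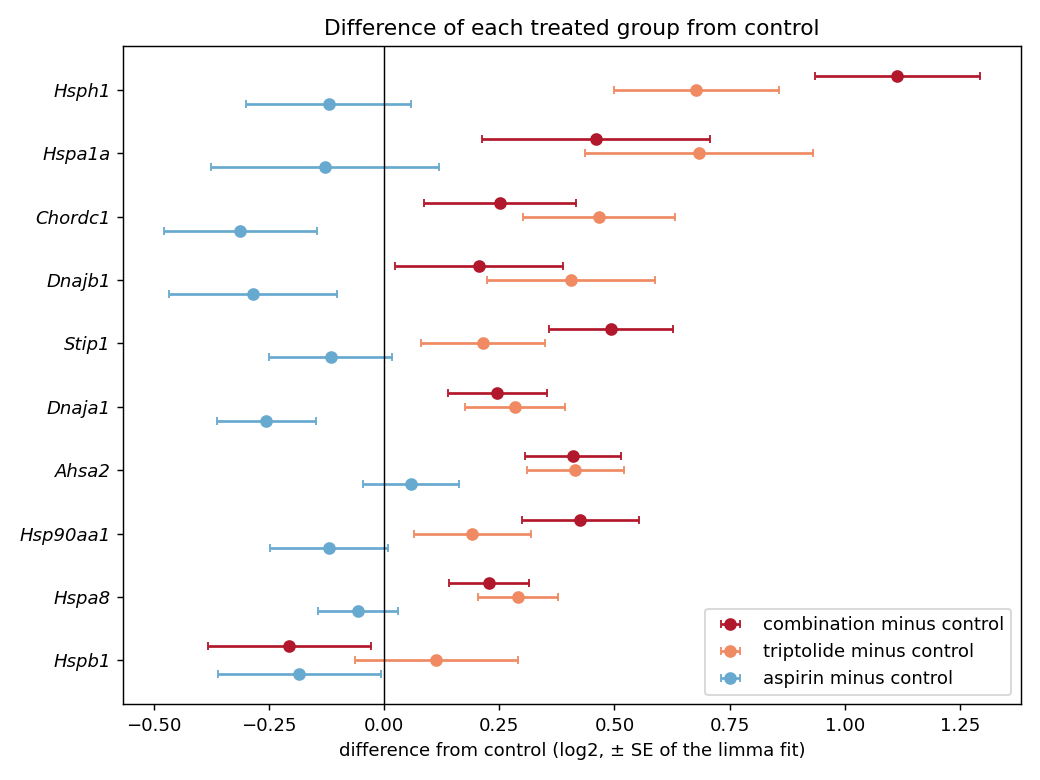
Difference of the combination, triptolide and aspirin groups from control for each gene (x axis, log2; points are limma estimates and bars ± SE), with genes down the page by their triptolide-exposed minus unexposed difference. Combination and triptolide points lie to the right of 0 except for Hspb1 with the combination, and aspirin points lie left of 0 except for Ahsa2.

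Comparison by comparison, limma with Benjamini-Hochberg adjustment over all 19938 genes called none of the 10 genes, nor any other gene, at an adjusted p under 0.05, so that percent called was 0 throughout. At an unadjusted p under 0.05, 2795 genes lay there for combination minus control, 561 for triptolide minus control, 609 for aspirin minus control, 2322 for combination minus aspirin, 2703 for combination minus triptolide, 1725 for exposed minus unexposed and 681 for the interaction. The members' own values are given without a p because they were chosen with these differences known. Combination minus control had a median of 0.33 over the 10 genes, against 0.01 over all genes, with 9 genes above 0, beside 52.8% of all genes. In 8 of them all combination arrays lay above both controls, as did 14.2% of all genes. Triptolide minus control had a median of 0.35, against -0.01 over all genes, with all 10 above 0, beside 45% of all genes, and 8 not overlapping, where 9.92% of all genes did not. These 2 comparisons and the next share the control arrays. In the next, Xist was low on all aspirin arrays and high in control, so aspirin and sex-linked level cannot be told apart. Aspirin minus control had a median of -0.12, against -0.005 over all genes, with 9 genes below 0, where 48.3% of all genes lay above 0. Only 3 of these did not overlap, a share of the 10 that stood beside 16% of all genes, and the median was -0.25 without control 1, -0.034 without control 2 and -0.22 without aspirin 2. Chordc1, the gene with the widest aspirin difference at -0.31, stood at -0.14 without aspirin 1, and the sign turned without control 2 for Hsph1 and Hspa1a, at 0.08 and 0.02, and without aspirin 3 for Hsph1, at 0.01.

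Triptolide added to aspirin was read from combination minus aspirin. Xist was high on all combination arrays and low on all aspirin arrays, so drug and sex-linked level cannot be told apart here. Combination minus aspirin had a median of 0.52, against 0 over all genes to 2 decimals (-8e-05). It lay above 0 in 9 genes, beside 50% of all genes, and 9 of the 10 genes had all combination arrays above all aspirin arrays, where 5.47% of all genes did. Hsph1 differed most, by 1.23 ± 0.16, or 2.35-fold. Stip1 followed at 0.61 ± 0.12, Hspa1a at 0.59 ± 0.22, Chordc1 at 0.56 ± 0.15, Hsp90aa1 at 0.55 ± 0.11 and Dnaja1 at 0.50 ± 0.10. Dnajb1 stood at 0.49 ± 0.16, and at 0.29 without combination 1. Hspb1 stood at -0.02 ± 0.16, and its sign turned without aspirin 2 and without combination 1, at 0.06 and 0.13.

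Aspirin added to triptolide gave differences of both signs. Combination minus triptolide had a median of -0.05, against 0.02 over all genes, and lay above 0 in 3 of the 10, beside 53.3% of all genes. Hsph1 at 0.44 ± 0.16, Stip1 at 0.28 ± 0.12 and Hsp90aa1 at 0.23 ± 0.11 lay higher with the combination than with triptolide, which are a nucleotide exchanger and 2 genes of the Hsp90 machine. Of these, Hsph1 and Stip1 did not overlap between the groups, where 8.36% of all genes lay higher without overlap. Hspb1 at -0.32 ± 0.16, Hspa1a at -0.22 ± 0.22, Chordc1 at -0.21 ± 0.15 and Dnajb1 at -0.20 ± 0.16 lay lower, and Ahsa2 at -0.01 ± 0.09 and Dnaja1 at -0.04 ± 0.10 lay nearest to 0. Hspa8 stood at -0.06 ± 0.08 and was the 1 gene lower without overlap, as were 9.53% of all genes. Its groups all but touched, with combination 3 at 13.312 and triptolide 2 at 13.3125. In another of its rows they overlapped, with combination 3 at 12.44 and triptolide 3 at 12.39. Single arrays moved several of these values. Without triptolide 3 it was 0.08 for Hspa1a, without combination 1 it was 0.14 for Stip1, and without triptolide 2 it was 0.13 for Hsp90aa1. For Dnajb1 it was -0.396 without combination 1, -0.13 without combination 2, -0.08 without combination 3 and -0.11 without triptolide 3. For Hspb1 it was -0.17 without combination 1 and -0.483 without combination 3, for Chordc1 -0.14 without triptolide 2, and for Hspa1a -0.39 without triptolide 1, -0.36 without triptolide 2 and -0.10 without combination 1. The interaction, combination minus aspirin minus triptolide plus control, was 0.56 ± 0.24 for Hsph1, 0.39 ± 0.18 for Stip1 and 0.35 ± 0.17 for Hsp90aa1, and lay within -0.14 to 0.22 for the other genes. It was above 0 in 6 of the 10, beside 52% of all genes. Once the level of the Y-linked genes was added to the fit the genes stood in another order, with the interaction at 0.64 for Hspa1a, 0.43 for Chordc1, 0.43 for Dnajb1, 0.37 for Dnaja1, 0.37 for Stip1, 0.18 for Ahsa2, 0.12 for Hspb1, 0.07 for Hsph1, -0.03 for Hsp90aa1 and -0.06 for Hspa8. In that fit, combination minus triptolide was 0.24 for Hsph1, 0.08 for Hsp90aa1, -0.08 for Chordc1 and -0.06 for Dnajb1, and it turned sign for Hspa1a, Ahsa2 and Dnaja1, at 0.07, 0.09 and 0.02. The interaction of Hsph1 was 0.36 without control 2, and that of Stip1 0.26 without combination 1.

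Combination 1, which stands apart over all genes, was at an end of the range of all 11 arrays or of the 6 exposed ones in most of the 10. On it 4 genes read highest of all 11 arrays (Hsph1, Stip1, Hsp90aa1 and Dnajb1), beside 19% of all genes, and 5 read lowest of the 6 exposed arrays (Dnaja1, Hspa8, Chordc1, Hspa1a and Hspb1), beside 32.5% of all genes. It was also the array with the cell cycle and erythroid levels given above, at 2.84 and 2.96, and with a B and plasma cell level of 1.10, and their part in this was not tested. Without it, the 7 genes that separated exposed from unexposed arrays still did.

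Arrays alike in Xist or in Y-linked levels were compared as well. Triptolide 1, with Xist as high as in control, read above both controls in 10 of the 10 genes, by a median of 0.31, beside 33.6% of all genes. All combination arrays, alike with control in Xist, lay above both controls in 8 genes. Triptolide 2 and 3 have Y-linked levels like aspirin, with Eif2s3y, a Y-linked initiation factor gene, at 9.82 and 9.56 against 9.26, 9.48 and 9.45. In Xist only triptolide 3 is like aspirin, since triptolide 2 read 9.75. Triptolide 3 lay above all 3 aspirin arrays in 10 of the 10 genes, by a median of 0.56 over the aspirin mean, beside 21.8% of all genes. Triptolide 2 did so in 8, by a median of 0.48, beside 33.1%. These sets were chosen after the values were seen. A fit with the level of the Y-linked genes added left the exposed minus unexposed differences within 1.5 times of those given, and moved others more. Under it, triptolide minus control was 0.34 for Hspa1a, 0.24 for Dnajb1, 0.31 for Chordc1, 0.37 for Hsp90aa1 and -0.008 for Hspb1, whose sign turned. Aspirin minus control turned sign for Hsph1, Hsp90aa1 and Ahsa2, at 0.17, 0.11 and -0.09, and widened for Hspa1a, Chordc1, Dnajb1 and Hspb1, to -0.57, -0.51, -0.49 and -0.34. Combination minus aspirin was then 0.98 for Hspa1a and 0.34 for Hsp90aa1, and turned sign for Hspb1, at 0.11.

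Other rows of the array table were read for 4 genes. Dnaja1 and Hspb1 had 2 rows each under a single symbol and Hspa8 and Hsp90aa1 had 3. Exposed minus unexposed ran from 0.39 to 0.43 over the rows of Dnaja1, 0.29 to 0.41 for Hspa8, 0.37 to 0.40 for Hsp90aa1 and 0.05 to 0.05 for Hspb1. Single groups varied more between rows, with triptolide minus control at 0.29 to 0.42 for Hspa8 and aspirin minus control at -0.16 to -0.03 for Hspa8 and -0.26 to -0.13 for Dnaja1. In the other Dnaja1 row, control 1 at 9.56 lay below aspirin 3 at 9.66. Rows of a gene read the same RNA, and those of Hspa8 and Hsp90aa1, which have processed copies in the genome, may share probes, so they do not count as replicates.

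Other chaperones were taken from 8 lists, with 82 of 83 genes measured, and none was called by limma in any of the 7 comparisons. For exposed minus unexposed, 60 lay above 0 and 22 below, with a median of 0.10, against -0.01 over all genes and 0.40 for the 10 genes. Over all genes, 45.5% lay above 0, and this share stands beside each count above 0 in the lists below. At an unadjusted p under 0.05, 23 lay higher and 3 lower, beside 2.76% higher and 5.89% lower over all genes. All exposed arrays lay above all unexposed ones in 7 of the 82, beside 0.471% of all genes: Hspa4l, Ahsa1, Cacybp, Cct4, Hspd1, Hspe1 and Manf. Only Hspa12a was lower without overlap, beside 0.717%. Manf was named after its value was seen.

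Near relatives of the members read as follows. Hspa4l, a second Hsp110, differed by 0.37 ± 0.10 (limma adjusted p = 0.198) and had no overlap. Ahsa1, the Aha1 activator itself, differed by 0.26 ± 0.08 (limma adjusted p = 0.312), Cacybp by 0.29 ± 0.06 (limma adjusted p = 0.131) and Ptges3, the Hsp90 co-chaperone p23, by 0.18 ± 0.06 (limma adjusted p = 0.330). Dnaja4, a J protein, stood at 0.29 ± 0.08 and St13 (Hip), which stabilises client-bound Hsp70, at 0.17 ± 0.07. The other J proteins lay above 0 in 10 of 12 genes with a median of 0.09, and the other Hsp90 co-chaperones in 10 of 15 with a median of 0.05. Fkbp5, an Hsp90 co-chaperone induced by glucocorticoids and named here after its value was seen, had 0.68 ± 0.29. The list of nucleotide exchange factors and other Hsp70 co-factors, which holds St13, split 3 above and 4 below. Bag3, a stress-induced member of that list, stood at -0.02 ± 0.09. Small heat shock proteins other than Hspb1 lay above 0 in 2 of 7, and Cryab, the lens and muscle crystallin, stood at -0.39 ± 0.12 (limma adjusted p = 0.293). Cryab read 11.16, 11.53 and 11.91 with the combination and 12.22 and 12.14 in control.

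Chaperones of other compartments lay mostly above 0 too. In mitochondria, Hspe1, the lid, and Hspd1, the folding chamber, differed by 0.47 ± 0.12 and 0.39 ± 0.14, with combination 1 highest for both at 11.48 and 11.27. The median of that list of 8 was 0.08. Of the cytosolic chaperonin and prefoldin genes, 11 of 13 lay above 0 with a median of 0.16, led by Cct4 at 0.17 ± 0.06. Endoplasmic reticulum chaperones lay above 0 in 12 of 13 with a median of 0.18. Among them, Creld2 stood at 0.33 ± 0.08 (limma adjusted p = 0.166), Sdf2l1 at 0.36 ± 0.09, Pdia4 at 0.30 ± 0.08 and Hspa5 (BiP) at 0.22 ± 0.07. In each of these lists the median stayed below that of the 10 genes. Since the 10 were picked with these differences known, that order is a description.

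**Figure D3:**
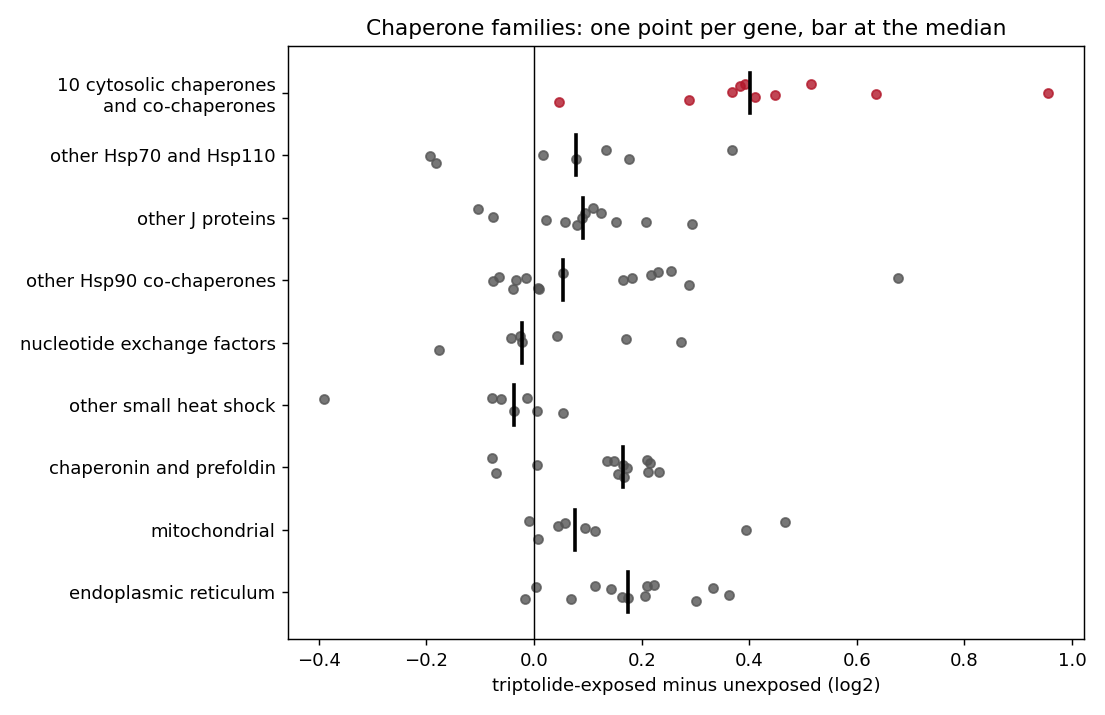
Triptolide-exposed minus unexposed difference (x axis, log2) of each gene in the 10 cytosolic chaperones and in 8 other chaperone lists (y axis); points are genes and black bars are list medians. The 10 genes, picked with these differences known, have a median of 0.40, and the medians of the other lists lie between -0.04 and 0.18.

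Regulators and inputs of the heat shock response were listed as well. Of the heat shock factor genes, Hsf2 stood at -0.03 ± 0.15, Hsf4 at -0.02 ± 0.08 and Hsf5 at 0.08 ± 0.09, and Hsbp1, a factor-binding inhibitor, at -0.15 ± 0.07 (limma adjusted p = 0.582). Cirbp and Rbm3, RNA-binding proteins induced by mild cold, stood at -0.28 ± 0.11 and -0.01 ± 0.11. Cirbp read 9.38, 9.85 and 9.94 with the combination, 9.70, 9.84 and 9.85 with triptolide, 10.34, 9.93 and 10.06 with aspirin, and 9.96 and 9.98 in control, so that only combination 3 and aspirin 2 overlapped. Of 8 other stress genes listed as induced by a heat shock factor, 4 lay above 0 and 4 below, with a median of 0.10. Among them, the metallothioneins Mt1 and Mt2 stood at 0.42 ± 0.13 and 0.62 ± 0.21 (limma adjusted p = 0.292 and 0.352). Immediate early genes lay above 0 in 7 of 11, beside 45.5% of all genes, with Ier3 at -0.48 ± 0.10 (limma adjusted p = 0.128). Fos, the best known of them, read 8.42, 9.39 and 8.63 with the combination, 8.53, 8.60 and 9.19 with triptolide, 8.24, 9.21 and 8.75 with aspirin, and 8.62 and 9.23 in control.

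Clock and glucocorticoid-induced genes lay above 0 in 12 of 14, beside 45.5% of all genes. Among them, Cebpd stood at 0.59 ± 0.14, Per1 at 0.55 ± 0.19 and Tsc22d3 at 0.55 ± 0.20. The mean centred level of the 14 genes ran from -0.25 to 0.34 with the combination, 0.05 to 0.29 with triptolide, -0.29 to 0.27 with aspirin and -0.46 to -0.41 in control. Aspirin 2 and 3 stood at 0.19 and 0.27 in these genes and at -0.17 and -0.35 in the chaperones. Combination 1 stood at -0.25 and 0.20. On every other array both levels had the same sign. The part of these genes in the chaperone result was not tested. Lymphocyte markers lay higher in the mean of the exposed groups but not on every exposed array. B and plasma cell markers lay above 0 in 5 of 5 and T cell markers in 3 of 3, beside 45.5% of all genes. The T cell level on triptolide 2, at -0.11, lay below control 1 and 2, at -0.09 and -0.02. The B and plasma cell level ran from 0.14 to 1.10 with the combination, -0.30 to 0.60 with triptolide, -0.77 to -0.17 with aspirin and -0.32 to -0.30 in control. Endothelial markers lay lower in 3 of 3, at -0.68 to -0.25, -0.14 to 0.23, 0.03 to 0.28 and 0.31 to 0.40 in the combination, triptolide, aspirin and control groups. Cdh5, the cadherin of endothelial junctions, read 11.84 at its lowest and 13.02 at its highest. The part of these cell types in the chaperone result was not tested.

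Genes with the most similar course over the 11 arrays were found by the root mean square difference between their centred profile and the mean centred profile of the 10 genes. The nearest was Cacybp, a binding partner of Siah1 and a co-chaperone, at 0.112, followed by Plbd1, a phospholipase-like protein, at 0.125 and Creld2 at 0.135. Cd3g, a chain of the T cell receptor complex, Cd48, a leukocyte adhesion protein, Ptprc (CD45), the phosphatase of all leukocytes, Ipo7, a nuclear import receptor, and Ptges3 came next, at 0.139 to 0.145. The median over the other 19928 genes was 0.29. Of the 8, 3 belong to the chaperone lists and 3 are leukocyte genes. Cacybp read 11.19, 11.01 and 11.08 with the combination, 11.04, 10.94 and 10.99 with triptolide, 10.64, 10.73 and 10.58 with aspirin, and 10.79 and 10.93 in control. Among the 10 genes themselves, Dnaja1 was nearest to the mean of the others, at 0.10, and Hsph1 and Hspb1 were farthest, at 0.37 and 0.30.

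**Figure D4:**
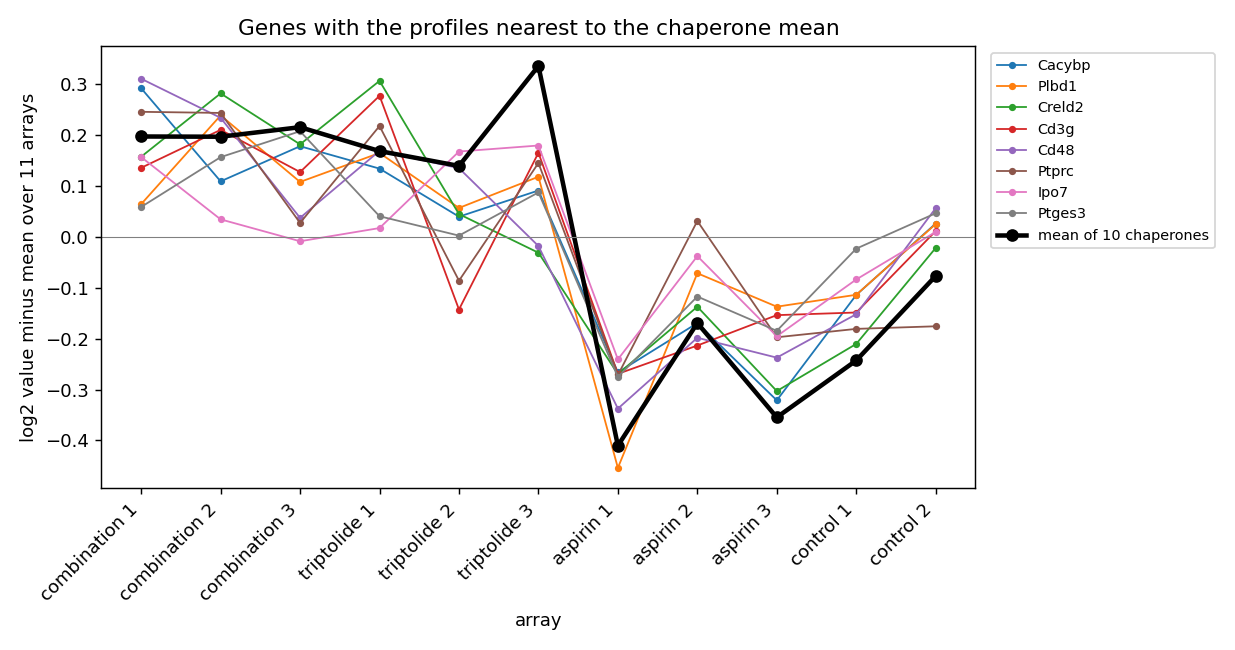
Log2 value minus its mean over the 11 arrays (y axis) on each array (x axis) for the mean of the 10 chaperone genes (black) and the 8 genes nearest to it (coloured lines). The black line lies between 0.14 and 0.34 on combination and triptolide arrays and between -0.41 and -0.08 on aspirin and control arrays.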

How the data were processed

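The authors deposited log2 expression values, 35556 rows by 11 arrays, without detection calls. RMA and Partek stand in the submitters' processing notes, with no version given in the sources used here. Medians of the arrays over all rows were 8.135 to 8.254, and 11 arrays bound the precision. GEO's platform annotation gave 1 symbol for 21789 rows. Rows with several symbols (1621) or unnamed here (12146) were not tested. Where a gene had several rows, the one with the highest mean was used, which left 19938 genes. Titles gave the groups.

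limma 3.58.1 (R 4.3.3, lmFit and eBayes) was fitted over the 4 groups with no covariate and no filter, two-sided, at 7 residual degrees of freedom, and p-values were adjusted by Benjamini-Hochberg over all genes. The code was tested on simulated data. Members, lists and comparisons were chosen with earlier results of these data known. Named were all members, the 3 genes of each list with the smallest p for exposed minus unexposed, 12 further genes set by name, some of which are not analysed here, and the 8 nearest profiles. Other names are marked as picked with values in view. Alternatives covered array centring, quantile normalization, dropping the lowest-reading genes, array weights, an intensity trend, the replicate block, mean rows, the Y-linked level, the compared groups alone and each array left out. Promoter letters are RefSeq's, on GRCm38.p6.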

Additional observations from a re-analysis of the deposited data

How the results depend on the processing

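The number of genes called by limma, 0 in each of the 7 comparisons, depended on the setting. With array weights, whose estimation stopped before its tolerance was reached, it was 3838 for combination minus control, 337 for triptolide minus control, 2935 for aspirin minus control, 6479 for combination minus aspirin, 4959 for combination minus triptolide, 4007 for exposed minus unexposed and 2139 for the interaction. Of the 10 chaperones these weights called 7, 7, 5, 9, 3, 9 and 2 in that order, beside the counts just given for all 19938 genes. Since the 10 were chosen with these differences known, their counts here and below are a description. Combination minus control gave 335 with arrays centred on their medians, 2 with quantile normalization, 71 without the lowest-reading genes and 96 with the Y-linked covariate, and 1 chaperone was called in each of these but the second, where it was 0. Combination minus aspirin gave 2 with quantile normalization, 1 without the lowest-reading genes and 2 from the compared groups alone, aspirin minus control gave 4 from those groups alone, and exposed minus unexposed gave 2 with quantile normalization. Leaving out 1 array gave 0 to 896 for combination minus control, 0 to 3 for triptolide minus control, 0 to 4 for aspirin minus control, 0 to 704 for combination minus aspirin, 0 to 24 for combination minus triptolide, 0 to 209 for exposed minus unexposed and 0 to 6 for the interaction. The highest count came without combination 3 in the first and in combination minus aspirin, combination minus triptolide and exposed minus unexposed, and without triptolide 1 in the others. The cause was not tested.

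With the replicate number as a block (replicate block), combination minus control gave 152 genes, 1 of them a chaperone, and the other comparisons gave 0. Whether the numbers pair the samples is not given. Of 15 pairs of arrays that share a number, 6 had deviations correlated above 0.1, with a range of -0.139 to 0.329. No pairs with unlike numbers are set beside them, so these correlations cannot decide it.

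The median over the 10 chaperones kept its sign in every alternative run for 6 comparisons. For combination minus triptolide it was -0.05, against 0.049 with the Y-linked covariate and -0.08 to 0.01 when 1 array was left out. The interaction, at 0.09, was 0.28 with the Y-linked covariate and 0.16 with quantile normalization. It was 0.0151 without triptolide 1, 0.0154 without aspirin 1 and 0.03 without control 2, against 0.18 without aspirin 2 and 0.19 without triptolide 3. Aspirin minus control ran from -0.25 to -0.034 and exposed minus unexposed from 0.38 to 0.44 when 1 array was left out. Of 1380 single-gene values under alternatives, 39 moved by more than the spread between replicates and 51 changed sign. The Y-linked covariate gave 26 of the 39 moves and array weights gave 9. Some values could not move, such as those with an intensity trend or without an array of a group not compared. Only Hspb1 changed sign in triptolide minus control, combination minus aspirin and exposed minus unexposed, and no gene did in combination minus control.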
